A study of Mus musculus with 2 samples.

Results

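The genes described here are the Wnt ligands, the frizzled receptors, the secreted Wnt antagonists and the main effectors of the pathway, read in imiquimod-treated mouse ear skin. They were taken from a table of 34745 genes by symbol: every protein-coding gene whose name starts with Wnt, Fzd, Sfrp, Dkk or Rspo followed by a digit, plus Lef1, Tcf7, Tcf7l2, Axin2, Nkd1, Nkd2, Notum, Wif1, Ctnnb1, Lrp5 and Lrp6. This gave 52 genes, namely 19 Wnt ligands, 10 frizzled receptors, 2 LRP co-receptors, 4 R-spondins, 10 secreted antagonists, 4 genes for beta-catenin and its DNA-binding partners, and 3 intracellular feedback inhibitors. The study made 2 RNA-seq libraries, whose labels read WT, for wild type, and KAT8-cKO, for a conditional knockout of KAT8. KAT8 is a histone acetyltransferase, also called MOF. Each ear, under either label, was given 30 mg of cream holding 5% imiquimod per day for 3 days, and skin was taken on day 4. Imiquimod activates the receptor TLR7 and produces a psoriasis-like inflammation in mouse skin. The sources used here do not give the promoter or cell type of the knockout, the strain, sex and age of the mice, or how many animals each library pools. No untreated skin was analysed here, so no value gives the response to imiquimod itself.

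Wnt proteins are secreted lipid-modified ligands that bind frizzled receptors. In the canonical branch, a frizzled and an LRP co-receptor together stop the destruction of beta-catenin, which then enters the nucleus and switches on target genes with TCF and LEF proteins. Secreted antagonists bind the ligands or the co-receptors, R-spondins raise the number of receptors at the cell surface, and several targets of the pathway are themselves inhibitors of it. In skin, Wnt signalling is best known for starting hair follicle growth, and it also acts in the interfollicular epidermis, the sebaceous gland and the dermis.

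The libraries held 12179608 counts (WT) and 13727524 counts (KAT8-cKO). Below, a pair of values gives the library labelled WT first and the library labelled KAT8-cKO second, and a ratio is the second over the first. Levels are in CPM, counts scaled to a common library total after correction by the trimmed mean of M values (TMM). A ratio in the text is a plain ratio of CPM with its exact 95% interval, which covers counting error only: reads that carry no molecular identifier need not be independent molecules. The log2 ratio adds 1 CPM to both levels. With 1 library per label there is no spread between animals to compare with, and all differences describe these 2 libraries. Kat8 itself had 219 and 351 counts, a ratio of 1.27 (1.07 to 1.51), which goes against the label, although its exons overlap those of Prss8 and the deleted part is not known. The libraries are therefore named by their labels throughout. Whether the labels were exchanged was not tested, and if they were, every direction given here would be the opposite. Xist, transcribed from the inactive X chromosome, had 11891 and 6 counts, and the Y-linked Eif2s3y had 0 and 838, so the sex of the animals cannot be told apart from the label.

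Markers of cell types also differed. Among 17 marker lists, the summed levels that the library labelled KAT8-cKO had lower included those of skeletal muscle (15411 and 3282 CPM, led by Acta1), adipocytes (3041 and 421 CPM, led by Fabp4), neutrophils (14040 and 5083 CPM, led by S100a8) and suprabasal keratinocytes (7275 and 2860 CPM, led by Krt1). Those it had higher included hair follicle stem cells (364 and 797 CPM, led by Krt15), sebaceous gland (2827 and 8946 CPM, led by Scd1), fibroblasts (4544 and 5975 CPM), basal keratinocytes (22862 and 27567 CPM) and cartilage (146 and 275 CPM, led by Acan). These lists were not uniform. Krt15 alone had 47.5 and 322 CPM of the hair follicle stem cell sums, and it is also in the basal keratinocyte list. Of 11 sebaceous gland genes, 7 were at least 2-fold higher and 1, Dgat2, at least 2-fold lower. Of 10 adipocyte genes, 8 were at least 2-fold lower and 1, Cidea, at least 2-fold higher. Of the basal keratinocyte genes, Krt14 had 12587 and 12064 CPM, the only ratio below 1 of 8, and Krt5 had 8602 and 12613 CPM. Of 13 fibroblast genes, 3 were at least 2-fold higher and 2, Dpt and Mfap5, at least 2-fold lower, and the most abundant, Col3a1, had a ratio of 1.08. In bulk skin, fewer cells of a type and less RNA per cell cannot be told apart, and the part of these shifts in the Wnt values below was not tested.

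Of the 52 genes, 43 were measured, meaning at least 1 CPM in either library. In the library labelled KAT8-cKO, 11 of these were at least 2-fold higher (log2 ratio of 1 or more) and 1 was at least 2-fold lower. The same rule called 4.56% of all 15240 measured genes higher and 8.63% lower. The 11 genes were Wnt2b, Wnt10a, Fzd1, Fzd2, Fzd7, Fzd8, Notum, Sfrp1, Wif1, Lef1 and Tcf7, and the lower gene was Sfrp4. The median log2 ratio was 0.50 over the 43 genes, with a range from -1.22 to 1.75, against 0.01 over all measured genes. By counting error alone, the interval of the ratio lay above 1 for 29 of the genes, below 1 for 7 and held 1 for the other 7, while over all measured genes it lay above 1 in 32.1% and below 1 in 31.9%. The count of 11 depends on the scaling. It was 6 when levels were scaled to the summed basal keratinocyte markers and 4 when scaled to the summed fibroblast markers. Of all measured genes, 2.96% and 2.50% were called higher under these 2 scalings. Krt14 and Krt5 held most of the basal keratinocyte sum (12587 and 8602 of 22862 CPM in the library labelled WT). Their ratios differed, at 0.959 and 1.47, so this scaling rests largely on 2 genes. Fzd7, Wif1, Lef1 and Wnt2b were at least 2-fold higher under every scaling tried, although Lef1 and Wnt2b, with few counts, were not when 5 CPM in place of 1 was added. Exons of 9 measured genes overlap another gene, and none of those neighbours had more than 19 counts in either library.

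**Figure D1:**
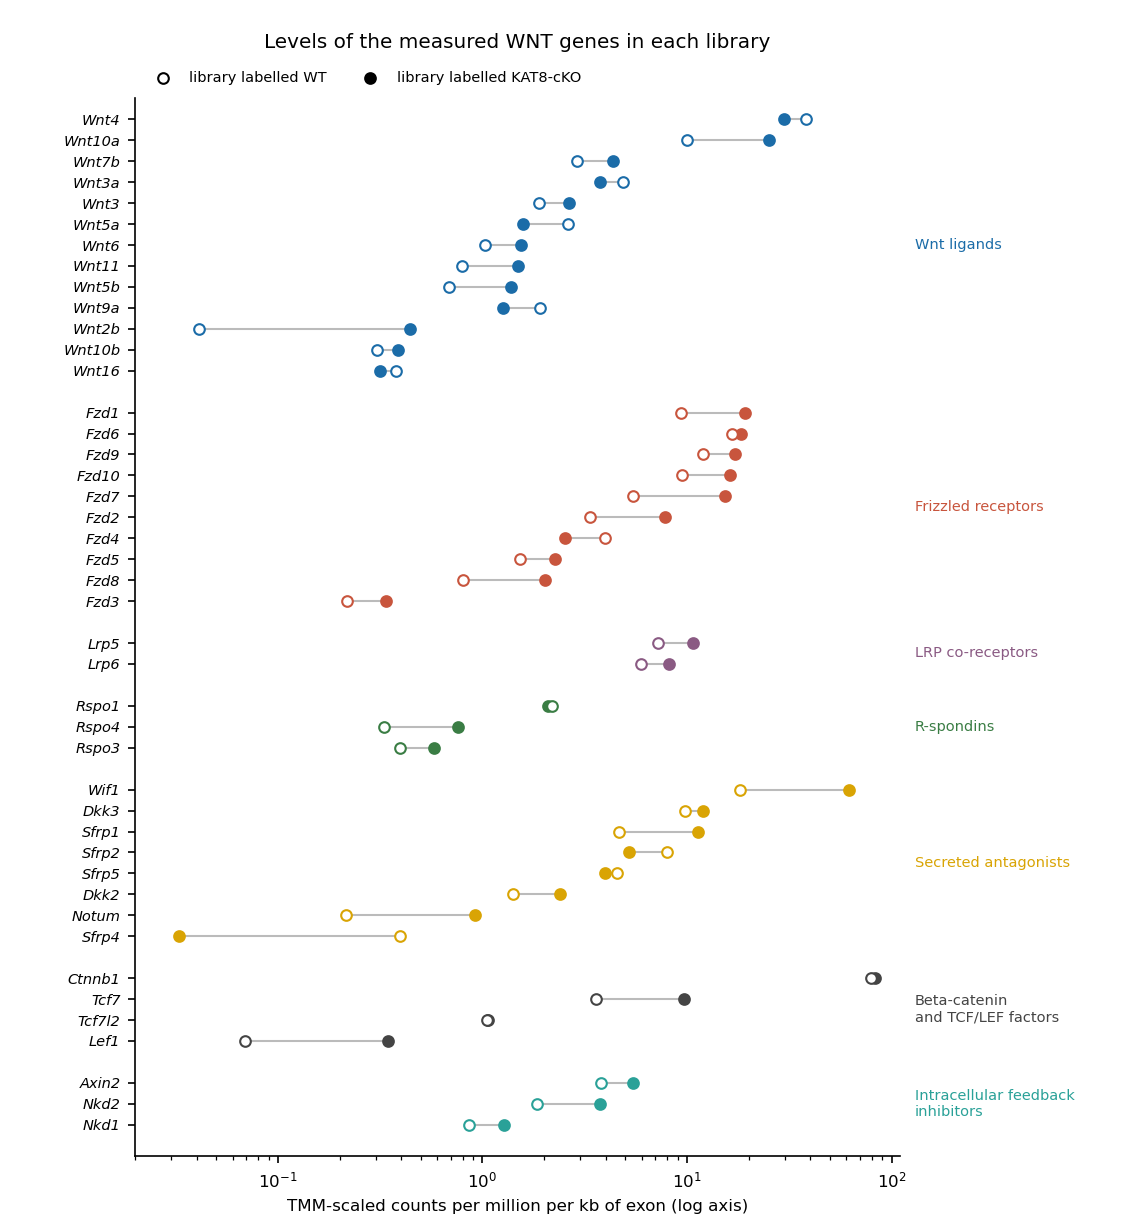
Level of each measured gene per kilobase of exon (CPM per kb, log axis) in both libraries, ordered by role. Each line joins the library labelled WT to the library labelled KAT8-cKO. Wnt4 is the highest ligand in both (38.1 and 30.0 CPM per kb), and Wif1 stands at 18.1 and 61.8.

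The 9 genes below the minimum had 0 to 6 counts. They were Wnt1, Wnt2, Wnt7a, Wnt8a, Wnt8b, Wnt9b, Rspo2, Dkk1 and Dkk4. Where a gene had 0 counts, this depth allows a level of up to 3 counts, or 0.260 CPM in the library labelled WT against 0.207 CPM in the other. Wnt1 is best known from brain patterning, and Dkk1 is the inhibitor that binds LRP co-receptors.

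Wnt4 was the most abundant ligand and was not among those that differed most. It had 1842 and 1824 counts, or 159.9 and 125.7 CPM, a ratio of 0.786 (0.736 to 0.839). Wnt4 is best known from kidney and reproductive tract development and is also a ligand of the epidermis. Wnt10a (chr1:74791516-74804179, plus strand) had 283 and 902 counts, or 24.6 and 62.2 CPM, a ratio of 2.53 (2.21 to 2.90), and a log2 ratio of 1.3 that was 0.92 when scaled to fibroblast markers. Mutations of the human gene cause hair, tooth and nail defects, and it is a ligand of the canonical branch. Per kilobase of exon, Wnt10a was the second ligand in both libraries, at 9.95 and 25.2 CPM per kb, so the level of Wnt4 was far above it in the library labelled WT and closer to it in the other. The intervals of Wnt4 (28.6 to 31.4 CPM per kb) and Wnt10a (23.6 to 26.9 CPM per kb) in the library labelled KAT8-cKO did not overlap.

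The other ligands with more than 100 counts in both libraries were on both sides of a ratio of 1. Wnt5a, the main ligand of the non-canonical branch, had 236 and 179 counts, or 20.5 and 12.3 CPM, a ratio of 0.602 (0.493 to 0.734), and with fibroblast scaling its log2 ratio of -0.69 became -1.06, past 2-fold lower. Wnt3a, a canonical ligand, had 154 and 151 counts, a ratio of 0.778 (0.618 to 0.981). Wnt7b, which is expressed in epidermis and follicle, had 163 and 309 counts, or 14.1 and 21.3 CPM, a ratio of 1.51 (1.24 to 1.83). Wnt5a was thus lower and Wnt7b higher, and both kept that direction under every scaling. Per kilobase, the level of Wnt5a (2.62 CPM per kb) and that of Wnt7b (2.89 CPM per kb) had overlapping intervals in the library labelled WT, whereas in the library labelled KAT8-cKO they were 1.58 and 4.35 CPM per kb and did not overlap.

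The lower-count ligands were spread on both sides of no difference. Wnt2b had 2 and 27 counts, a ratio of 10.7 with a wide interval of 2.69 to 93.0. Wnt11, a ligand of the non-canonical branch, had 38 and 90 counts, a ratio of 1.88 (1.27 to 2.82). Wnt5b, a close relative of Wnt5a, had 21 and 53 counts, a ratio of 2.0 (1.19 to 3.50), but its log2 ratio of 0.72 was under 1 because of the added CPM. These 3 genes were higher, unlike Wnt9a, which had 73 and 61 counts and a ratio of 0.663 (0.464 to 0.945). Wnt3, which had 67 and 118 counts, gave 1.40 (1.03 to 1.92). Wnt6 gave 26 and 49 counts, and its interval of 0.912 to 2.51 held 1, as did those of Wnt10b (12 and 19 counts) and Wnt16 (19 and 20 counts). Wnt6 lies 6.19 kb from Wnt10a on chromosome 1, and Wnt3a lies 16.2 kb from Wnt9a on chromosome 11. The neighbours had log2 ratios of 0.43 and 1.3 for the first pair and of -0.33 and -0.50 for the second.

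Summed over all 19 ligands, the counts were 2946 and 3815, or 255.7 and 262.9 CPM, a ratio of 1.03 (0.979 to 1.08). The sum gave 0.853 when scaled to basal keratinocyte markers and 0.782 when scaled to fibroblast markers. Its composition, which does not depend on the scaling, did differ. Wnt4 took 62.5% of the ligand counts (60.7 to 64.3) in the library labelled WT, against 47.8% (46.2 to 49.4) in the other. Wnt10a took 9.61% (8.57 to 10.7) and 23.6% (22.3 to 25.0). Wnt5a took 8.01% and 4.69%, and Wnt7b 5.53% and 8.10%.

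**Figure D2:**
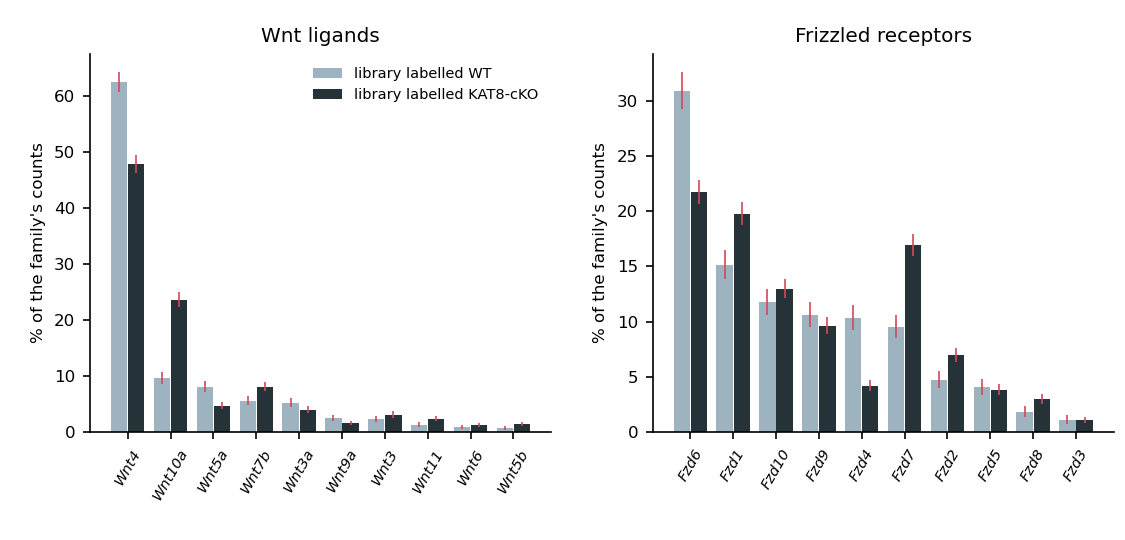
Share of the summed counts (percent) of the Wnt ligands and of the frizzled receptors taken by each gene, in both libraries, with exact 95% intervals; genes under 1% in both are not drawn. Wnt4 has 62.5% and 47.8%, Wnt10a 9.61% and 23.6%, and among the receptors Fzd7 has 9.53% and 16.9%.

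All 10 frizzled receptors were measured, and 4 of them were at least 2-fold higher, a count that was 1 under scaling to basal keratinocyte or fibroblast markers. The receptors are multi-pass membrane proteins that bind Wnt through a cysteine-rich outer domain. Their summed counts were 2990 and 5937, or 259.5 and 409.1 CPM, a ratio of 1.58 (1.51 to 1.65), and the ratio stayed above 1 under every scaling (1.20 with fibroblast markers). This interval does not overlap that of the summed ligands, 0.979 to 1.08. The median log2 ratio of the receptors was 0.66, and 9 of the 10 had an interval above 1.

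Fzd7 (chr1:59482424-59486955, plus strand) had the highest ratio of the receptors. It had 285 and 1005 counts, or 24.7 and 69.2 CPM, a ratio of 2.80 (2.45 to 3.20). Fzd7 is a receptor of stem and progenitor cells in several epithelia. Fzd8 had 55 and 175 counts, or 4.77 and 12.1 CPM, a ratio of 2.53 (1.86 to 3.49). With basal keratinocyte markers its log2 ratio was 0.94, although its plain ratio was 2.09. Fzd2 had 141 and 413 counts, or 12.2 and 28.5 CPM, a ratio of 2.33 (1.92 to 2.84). Fzd1 had 453 and 1174 counts, or 39.3 and 80.9 CPM, a ratio of 2.06 (1.84 to 2.30). Its log2 ratio of 1.02 lay just inside the threshold, as did the 1.08 of Notum, whereas the 0.94 of Nkd2 lay just outside it. Fzd1, Fzd2 and Fzd7 form the subfamily of receptors with the closest sequences, and all 3 had ratios above 1 under every scaling.

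The other receptors differed by less than 2-fold. Fzd10 had 352 and 769 counts, a ratio of 1.73 (1.53 to 1.97). Fzd9 had 317 and 572 counts, a ratio of 1.43. Fzd5 had 121 and 228 counts and Fzd3 32 and 63 counts, with log2 ratios of 0.54 and 0.50. Fzd6, a receptor of planar polarity that sets hair direction in mouse skin, had 925 and 1290 counts, a ratio of 1.11 (1.02 to 1.21), and its direction turned when levels were scaled to basal keratinocyte or fibroblast markers. Fzd4, a receptor of endothelial cells and the target of norrin, was the only receptor with a ratio below 1 under TMM scaling. It had 309 and 248 counts, or 26.8 and 17.1 CPM, a ratio of 0.637 (0.537 to 0.755). Endothelial markers summed to 317 and 246 CPM, led by Pecam1, a ratio of 0.776, and their part in the value of Fzd4 was not tested.

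Per kilobase of exon, the order of the receptors differed between the libraries. In the library labelled WT, Fzd6 was highest at 16.7 CPM per kb, then Fzd9 at 12, and Fzd10 (9.40) and Fzd1 (9.37) could not be separated by their intervals. In the library labelled KAT8-cKO, Fzd1 stood at 19.3, Fzd6 at 18.4, Fzd9 at 17.2, Fzd10 at 16.3 and Fzd7 at 15.3 CPM per kb, and each of these overlapped its neighbour in the order. Fzd6 took 30.9% of receptor counts in the first library and 21.7% in the second, and Fzd4 10.3% and 4.18%.

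The co-receptors Lrp5 and Lrp6, which pass the signal to the destruction complex, both had ratios above 1 and under 2, also when scaled to either marker set. Lrp5 had 812 and 1514 counts, a ratio of 1.48 (1.36 to 1.61). Lrp6 had 937 and 1627 counts, a ratio of 1.38 (1.27 to 1.50).

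**Figure D3:**
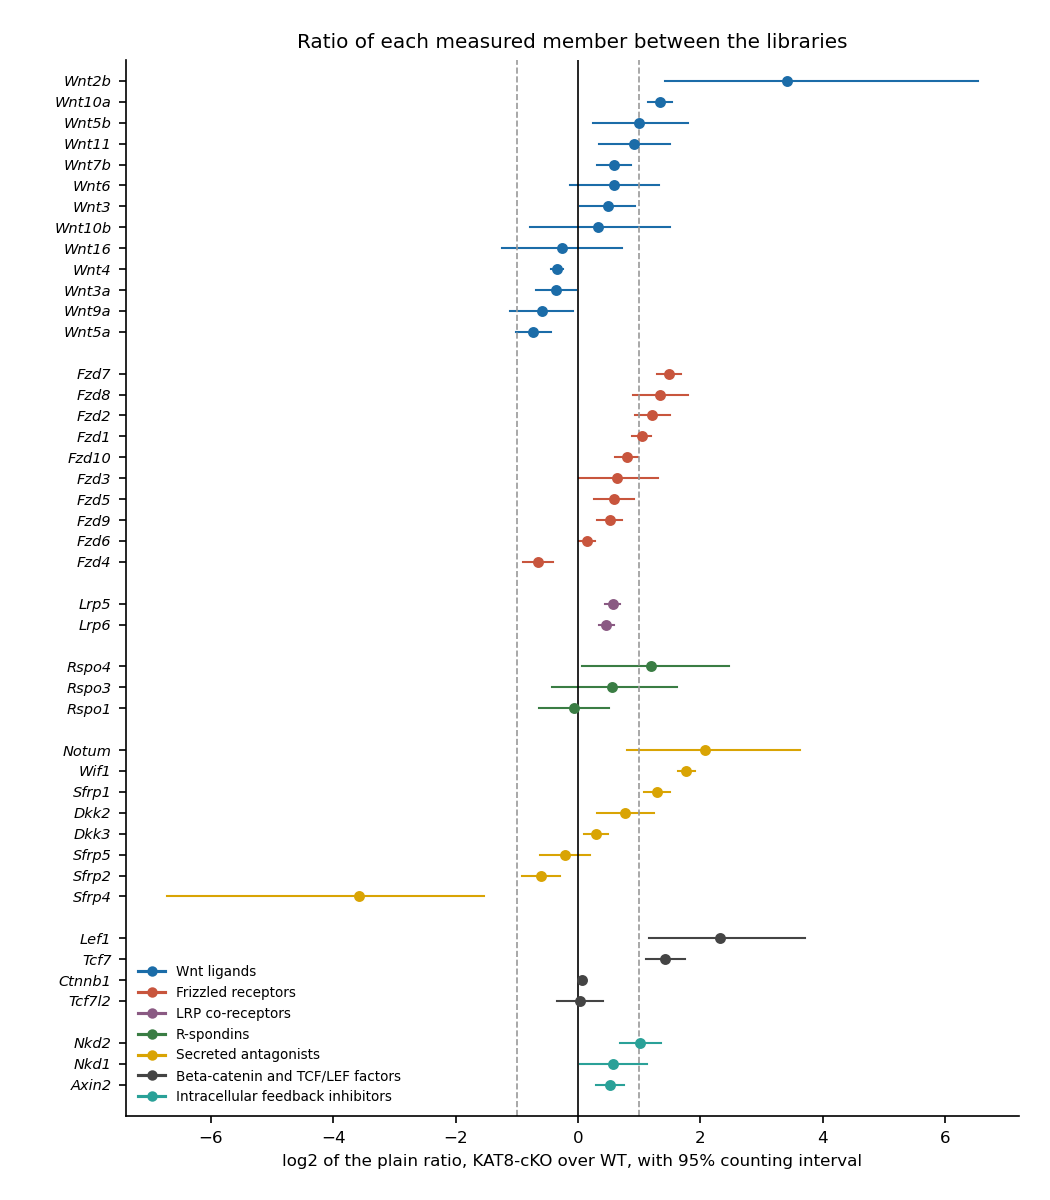
Log2 of the plain ratio of CPM (library labelled KAT8-cKO over library labelled WT) for each measured gene with its exact 95% counting interval, coloured by role; dashed lines mark 2-fold. The intervals of Wif1, Fzd7, Wnt10a, Sfrp1, Tcf7, Lef1 and Wnt2b lie above 2-fold, and that of Sfrp4 lies below the lower line. Genes with few counts such as Wnt2b have wide intervals.

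R-spondins, which act through LGR receptors to keep frizzled at the surface, had few counts. Rspo1 had 49 and 59 counts, Rspo3 14 and 26, and Rspo4, a gene of nail formation, 9 and 26. Only the interval of Rspo4 lay above 1, with a ratio of 2.29 (1.04 to 5.56) and a log2 ratio of 0.65. Their receptors differed more. Of the 5 genes listed for R-spondin receptors and the ligases they restrain, 3 were at least 2-fold higher. Lgr5 had 11 and 133 counts, a ratio of 9.60 (5.19 to 19.7), and Lgr6 had 75 and 810 counts, a ratio of 8.57 (6.76 to 11.0). Both mark stem cells of the hair follicle and belong to the hair follicle stem cell list as well. Lgr4, which is broadly expressed, had 294 and 771 counts, a ratio of 2.08 (1.82 to 2.39), and was under 2-fold when scaled to basal keratinocyte or fibroblast markers.

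Of the secreted antagonists, Wif1 (chr10:121033960-121100650, plus strand) had the most counts. Wif1 binds Wnt ligands outside the cell. It had 506 and 2178 counts, or 43.9 and 150.1 CPM, a ratio of 3.42 (3.10 to 3.77), and a log2 ratio of 1.75. That log2 ratio was the highest of the 43 measured genes with 1 CPM added, although Wnt2b, Lef1 and Notum, which have few counts, had larger plain ratios. Sfrp1, a frizzled-like decoy, had 234 and 722 counts, or 20.3 and 49.7 CPM, a ratio of 2.45 (2.11 to 2.85). Notum, an enzyme that removes the lipid from Wnt, had 6 and 32 counts, a ratio of 4.23 (1.75 to 12.4). Its exons overlap the antisense genes Notumos (0 and 2 counts) and Myadml2os (0 and 0 counts). Wif1, Sfrp1 and Notum were the 3 antagonists at least 2-fold higher, of 8 measured. Sfrp1 and Notum lost that call, which uses the log2 ratio, under scaling to basal keratinocyte or fibroblast markers. The plain ratio of Notum was still 3.51 and 3.22 under these 2 scalings, and that of Sfrp1 was 2.03 and 1.86. The marker lists with the highest ratios of sums were sebaceous gland (3.16), Schwann cell (2.28), hair follicle stem cell (2.19) and cartilage (1.88). Other lists had lower sums in the library labelled KAT8-cKO, and the part of any list in these genes was not tested.

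No other gene named Sfrp had a ratio above 1 under TMM scaling. Sfrp2, a fibroblast-expressed member, had 197 and 163 counts, or 17.1 and 11.2 CPM, a ratio of 0.657 (0.530 to 0.812). Sfrp4 had 19 and 2 counts, or 1.65 and 0.138 CPM, a ratio of 0.084 (0.009 to 0.346). Sfrp5 had 100 and 109 counts, and its interval of 0.654 to 1.15 held 1. Summed over the 4 genes, the SFRP counts were 550 and 996, of which Sfrp1 took 42.5% and 72.5%, and Sfrp2 35.8% and 16.4%. So the shares of Sfrp1 and Sfrp2 had overlapping intervals in the library labelled WT, unlike in the other. The gene of SFRP3 is called Frzb and was outside the naming rule. It had 438 and 1135 counts, or 38.0 and 78.2 CPM, a ratio of 2.06 (1.84 to 2.30), and it was looked up after the other values were seen.

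Among the Dickkopf genes, Dkk3 had 377 and 582 counts, a ratio of 1.23 (1.08 to 1.40), and its log2 ratio of 0.29 became -0.10 when scaled to fibroblast markers. Dkk2, which binds LRP co-receptors, had 60 and 129 counts, a ratio of 1.71 (1.25 to 2.36). Dkk3 does not inhibit LRP as its relatives do, and it held 86.1% and 81.7% of the Dickkopf counts. Over all 10 antagonists the summed counts were 1500 and 3918, or 130.2 and 270.0 CPM, a ratio of 2.07 (1.95 to 2.20) that stayed above 1 under every scaling (1.58 with fibroblast markers). Wif1 made up 33.7% of these in the library labelled WT, against 55.6% in the other.

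The promoters of 3 genes at least 2-fold higher are shown because a single RefSeq start and at least 200 bases free of annotated exon were found for each. Those of the other genes at least 2-fold higher are not shown. The windows lie before the RefSeq start on GRCm38.p6, chr5:4758217-4758466 on the minus strand for Fzd1, chr1:59481897-59482146 on the plus strand for Fzd7 and chr10:121033754-121033959 on the plus strand for Wif1, written 5′ to 3′ along the gene with CG dinucleotides in capitals.
Fzd1: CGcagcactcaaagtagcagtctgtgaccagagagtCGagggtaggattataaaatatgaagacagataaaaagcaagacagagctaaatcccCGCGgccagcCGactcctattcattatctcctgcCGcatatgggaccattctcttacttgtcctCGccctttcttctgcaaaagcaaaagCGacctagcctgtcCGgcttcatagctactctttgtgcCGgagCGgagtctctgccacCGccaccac
Fzd7: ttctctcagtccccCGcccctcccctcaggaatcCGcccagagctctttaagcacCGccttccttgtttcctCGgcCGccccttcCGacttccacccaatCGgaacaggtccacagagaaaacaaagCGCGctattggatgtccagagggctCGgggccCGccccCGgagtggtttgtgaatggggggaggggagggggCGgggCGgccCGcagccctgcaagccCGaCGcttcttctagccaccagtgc
Wif1: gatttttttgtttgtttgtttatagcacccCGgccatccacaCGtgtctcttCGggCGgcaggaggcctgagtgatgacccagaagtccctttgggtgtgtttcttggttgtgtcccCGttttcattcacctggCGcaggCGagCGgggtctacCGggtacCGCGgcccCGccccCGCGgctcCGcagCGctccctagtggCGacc
The 3 stretches hold 12, 17 and 17 CG dinucleotides. Of the 52 genes, 35 had a RefSeq window of 300 bases, from 250 before to 50 after the start, with a median of 29 CG dinucleotides (6 to 58) against 7 over the 27025 genes with a window. Their GC content had a median of 70.0%, against 52.7%. Both medians use the window farthest 5′ of each gene. The 27025 genes were not limited to protein-coding genes, as the 52 genes were.

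TCF and LEF proteins bind the letters CTTTGAT or CTTTGAA, searched on both strands; the motifs share their first 6 letters. Counting any window of a gene, 3 of the 35 genes held a match (8.57%), and 9.88% of all genes with a window did. Wnt5b has 3 windows, and its match is not in the one farthest 5′. The matches were in Wnt5b, Wnt11 and Dkk1, and those of Wnt5b (chr6:119449439-119449469, minus strand, 71 bases before a start) and Wnt11 (chr7:98835049-98835079, plus strand, 51 bases before the start, with the motif on the other strand) are shown with the motif in capitals, to show what a match looks like.
Wnt5b: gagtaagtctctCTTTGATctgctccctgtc
Wnt11: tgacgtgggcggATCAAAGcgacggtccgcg
A match is only the letters, and no match says only that they are not in the windows of that gene.

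The gene of beta-catenin had near-equal levels, whereas 2 of its DNA-binding partners were at least 2-fold higher. Ctnnb1, which encodes beta-catenin, had 4758 and 6266 counts, a ratio of 1.05 (1.01 to 1.09), and flipped to below 1 under both marker scalings. Lef1 and Tcf7 encode factors that turn on targets when beta-catenin is present. Lef1 had 7 and 44 counts, or 0.608 and 3.03 CPM, a ratio of 4.99 (2.23 to 13.1). Tcf7 had 109 and 369 counts, or 9.46 and 25.4 CPM, a ratio of 2.69 (2.17 to 3.36). Tcf7 lost that call when scaled to fibroblast markers, with a log2 ratio of 0.97, although its plain ratio was 2.04. Tcf7 is also a factor of T cells, whose listed markers summed to 32.3 and 46.2 CPM, with 9 of 11 measured, and their part in the value of Tcf7 was not tested. Tcf7l2 had 106 and 136 counts, with a log2 ratio of 0.02.

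The intracellular inhibitors are genes that the pathway is known to induce, and their ratios were smaller. Axin2, a scaffold of the destruction complex that is widely used as a readout of canonical signalling, had 240 and 433 counts, or 20.8 and 29.8 CPM, a ratio of 1.43 (1.22 to 1.68). Nkd2, which binds Dishevelled, had 103 and 263 counts, a ratio of 2.03 (1.61 to 2.57) and a log2 ratio of 0.94. Nkd1 had 45 and 84 counts, a ratio of 1.48 (1.02 to 2.18). All 3 had a log2 ratio above 0 under every scaling, and none reached 1, except Nkd2 with plain CPM and with a total without the 50 most abundant genes.

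**Figure D4:**
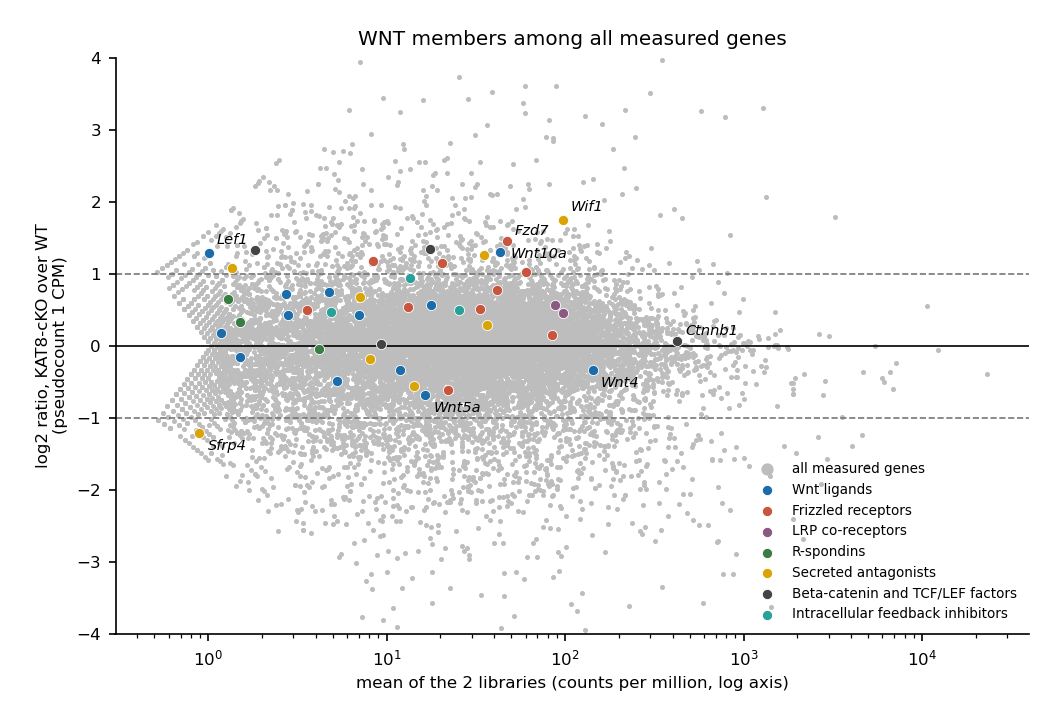
Log2 ratio (library labelled KAT8-cKO over library labelled WT) against mean level (CPM, log axis) for every measured gene in grey and the 43 measured Wnt pathway genes in colour; the axis stops at a log2 ratio of 4 in either direction and 22 genes lie outside it. The coloured points lie above 0 for 33 of 43 genes, against 50.6% of all genes.

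Other genes of the pathway were taken from 8 lists with 76 entries, of which 72 were measured. Of these, 11 were at least 2-fold higher and 1 lower, beside the 4.56% and 8.63% of all measured genes, and the median log2 ratio was 0.36. Both genes of Wnt secretion had ratios under 2 with intervals above 1. Wls, the carrier of Wnt proteins, had 823 and 1185 counts, a ratio of 1.14 (1.04 to 1.25) and a log2 ratio of 0.19. The acyltransferase Porcn had 161 and 259 counts, a ratio of 1.28 (1.04 to 1.56) and a log2 ratio of 0.33. The alternative Wnt receptors had 2 of 6 at least 2-fold higher. Ptk7 had 717 and 1846 counts, a ratio of 2.04, and Adgra2, also called Gpr124, had 268 and 738, a ratio of 2.19. Neither kept 2-fold under the marker scalings. Sostdc1, which inhibits both BMP and Wnt signalling, was the only gene of 8 measured in the other antagonists that was at least 2-fold higher. It had 97 and 550 counts, a ratio of 4.50 (3.62 to 5.64). The most abundant genes of that list were Kremen1 (log2 ratio 0.40) and Tpbg (0.30).

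The destruction complex and the nuclear partners of beta-catenin had no gene with a log2 ratio of 1 or more in size under TMM scaling. The coactivator Bcl9, at 151 and 393 counts, lay just under it with a log2 ratio of 0.99 and a plain ratio of 2.07 (1.71 to 2.51), and it was called higher with plain CPM, with DESeq2 size factors and with a total without the 50 most abundant genes. Of 12 measured genes of the destruction complex and Dishevelled, the median log2 ratio was 0.19, and the most abundant were the kinase Csnk1a1 at 6807 and 6751 counts (log2 ratio -0.34) and the tankyrase Tnks2, which marks Axin for destruction, at 2117 and 2328 (log2 ratio -0.19). Of the 11 nuclear partners, the median was 0.23, and the most abundant were the corepressor Tle3 (log2 ratio 0.03) and the coactivator Bcl9l (0.84). Both medians turned below 0 when scaled to basal keratinocyte or fibroblast markers.

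Of 16 measured beta-catenin targets outside the 52 genes, 3 were at least 2-fold higher and 1 lower, with a median of 0.25. Sox9, a follicle stem cell factor, had 126 and 708 counts, a ratio of 4.46, and Tnfrsf19, also called Troy, had 173 and 989, a ratio of 4.54. Sp5, a direct target in many tissues, had 16 and 70, a ratio of 3.47 (2.0 to 6.41). Sox9 also stands in the hair follicle stem cell and cartilage lists, so its value is not separate from them. Mitf, the melanocyte factor, had 178 and 56 counts, a ratio of 0.250. It was the only one of 5 measured melanocyte markers with a log2 ratio below 0, and their median was 0.38. Among 12 planar polarity genes, the cadherins Celsr1 (555 and 1671 counts, ratio 2.39) and Celsr2 (759 and 2285 counts, ratio 2.39) were at least 2-fold higher, and neither was under the marker scalings. With fibroblast markers, the medians of the Wnt secretion, planar polarity and beta-catenin target lists were also below 0, at -0.12, -0.13 and -0.09.

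**Figure D5:**
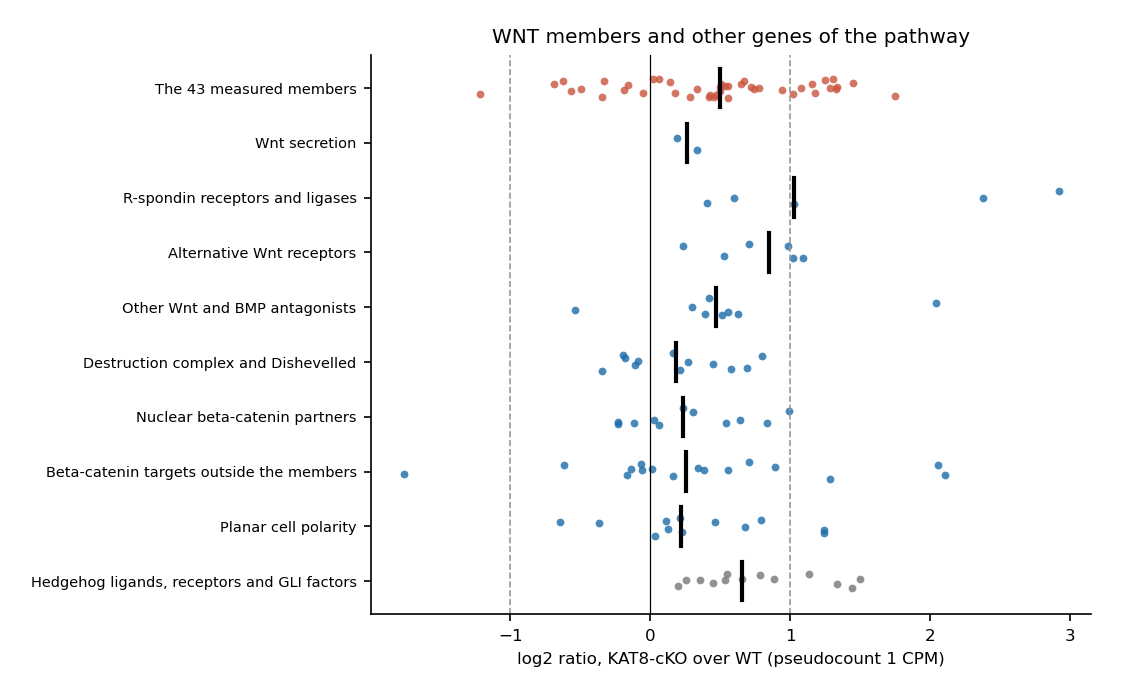
Log2 ratio (library labelled KAT8-cKO over library labelled WT) of the 43 measured Wnt pathway genes, of the other pathway lists and of the Hedgehog list, 1 point per gene with the median as a black bar; dashed lines mark 2-fold. The R-spondin receptors have the highest median of the pathway lists at 1.03, and the destruction complex has the lowest at 0.19.

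The Hedgehog pathway, which like Wnt acts in hair follicle growth, was taken as a comparison. Of its 16 genes, 13 were measured and 4 were at least 2-fold higher (Boc, Disp1, Gli1 and Gli2), a count of 2 with fibroblast markers. This stands beside 11 of the 43 measured Wnt pathway genes and 4.56% of all measured genes. The Hedgehog median was 0.65, above the 0.50 of the 43 Wnt pathway genes and close to the 0.66 of the frizzled receptors. A median above that of all genes was thus not particular to the Wnt pathway genes. All 13 had a log2 ratio above 0, against 33 of the 43 Wnt pathway genes. Shh, which is transcribed in the growing hair bulb, had 0 and 2 counts. Hair matrix, shaft and root sheath markers summed to 87.3 and 132 CPM, with 10 of 17 measured and Krt34 at 0 in both libraries. Gata3 alone had 23.1 and 63.3 CPM of these sums, and 4 of the 10 measured genes had a log2 ratio below 0. Hair follicle stem cell markers had 6 of 11 at least 2-fold higher. Dermal papilla markers had 1 of 12 higher and 2 lower and summed to 132 and 122 CPM. The part of follicle cells in the Wnt values was not tested.

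The choice of scaling multiplies the plain ratio of every gene by the same factor. The log2 ratio shifts less for genes with few counts, because 1 CPM is added. From TMM to fibroblast scaling, that of Ctnnb1 went from 0.06 to -0.33 and that of Wnt2b from 1.29 to 1.13. The median log2 ratio of all measured genes was 0.16 with plain CPM, 0.11 when the total left out the 50 most abundant genes, -0.25 when scaled to basal keratinocyte markers and -0.36 when scaled to fibroblast markers. The median of the Wnt pathway genes minus the median of all genes was 0.49 in the first 3 and 0.50 in the last, which follows from a scaling that shifts both. Of all measured genes, 6.33% were higher and 6.94% lower with plain CPM, 2.96% and 12.4% with basal keratinocyte markers, and 2.50% and 15.1% with fibroblast markers.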

How the data were processed

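Ear skin RNA was measured in 2 libraries, 1 per label, by RNA-seq of poly(A)-selected RNA, per the labels' protocols. The values deposited by the authors are raw counts for each Ensembl gene, with no normalization. The tools HISAT2, StringTie 1.3.0 and edgeR and the build mm10 come from the submitters' processing notes. The counter, annotation release and strand setting were not given in the sources used here. If strand was ignored, an exon shared with a gene on the other strand mixes both genes' reads, which touches 9 of the measured genes.

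Symbols, coordinates and union exon lengths were from GENCODE M21 (GRCm38), with 34344 of 34745 identifiers matched, and promoter windows were from RefSeq (GRCm38.p6). Counts were scaled by TMM (edgeR 4.0.16, R 4.3.3), with factors 0.946 and 1.06. A gene was measured where either library reached 1 CPM. The ratio interval was exact Clopper-Pearson at 95% from the counts. No test was run and no p-value is given. The calculations were tested on simulated data. The genes and all lists were chosen with earlier results of these data known. Every measured member is named. Of the pathway and Hedgehog lists, the genes past 2-fold are named or, failing 2 of these, the 2 most abundant. Of the marker lists, only some genes are named, and others past 2-fold are not. Frzb, Bcl9, Krt5, Dpt, Mfap5, Dgat2, Cidea, Xist and Eif2s3y were chosen after their values were seen. The unmatched identifiers held 0.0783% and 0.0597% of the counts. Alternatives were plain CPM, DESeq2 1.42.0 size factors, a total without the 50 most abundant genes, pseudocounts of 0.1 and 5 CPM, no filter, a 5 CPM filter, leaving out overlapping genes, and, added after seeing the data, scaling to marker sums.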

Additional observations from a re-analysis of the deposited data

How the results depend on the processing

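The count of genes at least 2-fold higher was 11, and it was 5 with a pseudocount of 5 CPM, 6 when scaled to the summed basal keratinocyte markers and 4 when scaled to the fibroblast markers. The count of lower genes was 1, and it was 0 with a pseudocount of 5 CPM, 0 with a filter of 5 CPM and 2 with fibroblast scaling. The median log2 ratio was 0.50, and 0.14 with fibroblast scaling. For the frizzled receptors the count of 4 was 1 under the pseudocount of 5 CPM and 1 under each marker scaling, and the median of 0.66 was 0.29 with fibroblast scaling. The marker scalings were chosen after seeing the data. Plain CPM gave 12 genes higher, DESeq2 size factors 11 and a total without the 50 most abundant genes 12. A pseudocount of 0.1 CPM gave 13. No filter gave 11 of 49 genes and a 5 CPM filter 8 of 31. Leaving out genes with overlapping exons gave 9 of 34. The share of all genes called also moved from 4.56% higher and 8.63% lower. It was 6.33% and 6.94% with plain CPM and 4.70% and 8.47% with DESeq2 size factors. Leaving the 50 most abundant genes out of the total gave 5.58% and 7.40%. Scaling to basal keratinocyte markers gave 2.96% and 12.4%, and to fibroblast markers 2.50% and 15.1%. The share was 6.64% and 11.3% with a pseudocount of 0.1 CPM, and 2.28% and 5.10% with 5 CPM. With no filter it was 3.40% and 6.44%, and with a 5 CPM filter 4.37% and 8.83%. The added 1 CPM holds genes with few counts under the threshold. The cause of the other differences was not tested. The number of libraries, 1 per label, limits every value. No paired analysis was possible because each label has 1 library and the result comes from no test.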
